A study of Mus musculus with 22 samples.

Results

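H3K27ac regions that held a peak only between 2 and 12 h of estradiol treatment were examined in G1ER (G1E-ER4) cells, a mouse erythroid progenitor line that lacks endogenous GATA1 and constitutively expresses GATA1 fused to the ligand-binding domain of the estrogen receptor (GATA1-ER). The cells were a subclone of the G1E line, grown with SCF and EPO, and were either undifferentiated (0 h) or had received 10-7 M β-estradiol, with samples at 2, 6, 12, and 24 h. ChIP-seq peak lists were available for H3K27ac and H3K4me3 with 2 replicates at each of the 5 time points, and for CTCF with 1 list at 0 h and 1 at 24 h. No group without GATA1-ER or with estradiol in parental cells was analysed here, so a response to estradiol itself cannot be told apart from one to GATA1-ER. The 10 H3K27ac lists were merged into 24299 regions. Of these, 327 (1.35%) had no peak in any of the 4 lists at 0 and 24 h and had a peak in both lists of at least 1 of 2, 6, and 12 h. These 327 transient regions were therefore selected on the H3K27ac lists themselves, and their H3K27ac values are given as a description without a test.

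H3K27ac is deposited by the acetyltransferases CBP and p300 at active enhancers and promoters, and is removed by histone deacetylases. When estradiol is added, GATA1-ER moves into the nucleus and binds GATA sequences, where it replaces GATA2 at many sites, activates erythroid genes and represses genes of the progenitor state. H3K4me3 marks mainly active promoters, so that H3K27ac without H3K4me3 away from a transcription start site (TSS) is the usual pattern of an enhancer, and CTCF binds insulators and loop anchors.

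In all, 12 regions held a peak in all 6 lists from 2 to 12 h, the most complete form of the pattern, and sequence is shown for 6 of them. Each window is the 200 bp of the region with the most GATA matches (GATA with A or T before it and A or G after it, on either strand), taken from the plus strand of GRCm38, and capitals mark the matches.
Ssbp3 window, chr4:106988988-106989187: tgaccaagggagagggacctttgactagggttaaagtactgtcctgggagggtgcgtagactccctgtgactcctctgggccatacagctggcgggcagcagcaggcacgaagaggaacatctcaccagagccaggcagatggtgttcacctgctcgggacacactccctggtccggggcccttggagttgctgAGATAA
Kmt5c window, chr7:4749543-4749742: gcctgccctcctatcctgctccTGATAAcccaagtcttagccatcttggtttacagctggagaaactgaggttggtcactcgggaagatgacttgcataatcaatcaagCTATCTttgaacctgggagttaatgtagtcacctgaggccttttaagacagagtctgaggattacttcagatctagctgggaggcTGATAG
Ccr3 window, chr9:124016111-124016310: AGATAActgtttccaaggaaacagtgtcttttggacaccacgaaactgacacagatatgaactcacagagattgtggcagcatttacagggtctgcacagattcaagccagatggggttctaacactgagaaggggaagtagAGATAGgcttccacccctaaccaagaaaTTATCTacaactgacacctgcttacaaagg
Tab2 window, chr10:8020300-8020499: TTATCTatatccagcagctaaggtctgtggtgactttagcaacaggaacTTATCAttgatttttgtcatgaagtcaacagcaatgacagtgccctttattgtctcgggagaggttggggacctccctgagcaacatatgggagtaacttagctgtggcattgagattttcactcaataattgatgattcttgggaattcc
Nab1 window, chr1:52373859-52374058: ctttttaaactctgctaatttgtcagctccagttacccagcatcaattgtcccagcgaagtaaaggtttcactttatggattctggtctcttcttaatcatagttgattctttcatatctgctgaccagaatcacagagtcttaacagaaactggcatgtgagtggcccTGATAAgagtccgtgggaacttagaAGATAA
Cpne8 window, chr15:90764423-90764622: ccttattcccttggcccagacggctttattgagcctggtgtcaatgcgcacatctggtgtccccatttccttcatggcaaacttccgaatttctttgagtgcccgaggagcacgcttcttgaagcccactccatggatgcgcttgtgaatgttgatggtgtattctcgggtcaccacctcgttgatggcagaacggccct
The *Ssbp3* window lay in an intron of that gene, and the other 5 windows lay outside protein-coding genes. The whole regions held 3 GATA matches in 3064 bp near *Ssbp3*, 12 in 4928 bp near *Kmt5c*, 8 in 1802 bp near *Ccr3*, 8 in 2488 bp near *Tab2*, 6 in 1999 bp near *Nab1*, and 0 in 677 bp near *Cpne8*. The *Cpne8* region overlapped *Rpl31-ps8*, an annotated processed pseudogene of a ribosomal protein gene. It was the only one of the 6 printed regions with H3K4me3, which was present in all 10 lists.

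The 327 regions were divided about evenly over the 3 intermediate times. Peaks were present in both lists only at 2 h in 90 regions (27.5%), only at 6 h in 101 (30.9%), and only at 12 h in 72 (22.0%). A further 18 regions had both lists of 2 and 6 h, 17 those of 6 and 12 h, 17 those of 2 and 12 h but not of 6 h, and 12 (3.67%) those of all 3 times. Single lists often filled in the neighbouring times, so that the regions with peaks in exactly 2 lists and in no other list numbered 107, made up of 44 regions of the 2 h lists, 40 of the 6 h lists, and 23 of the 12 h lists. The remaining regions had peaks in 3 lists (99 regions), 4 lists (78), 5 lists (31), or 6 lists (12). In the individual lists, the 2 h replicates had a peak at 170 and 181 of the 327 regions, the 6 h replicates at 188 and 197, and the 12 h replicates at 152 and 162. The 2 replicates of a time point therefore held similar numbers of the regions, with somewhat more at 6 h than at 12 h.

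**Figure D1:**
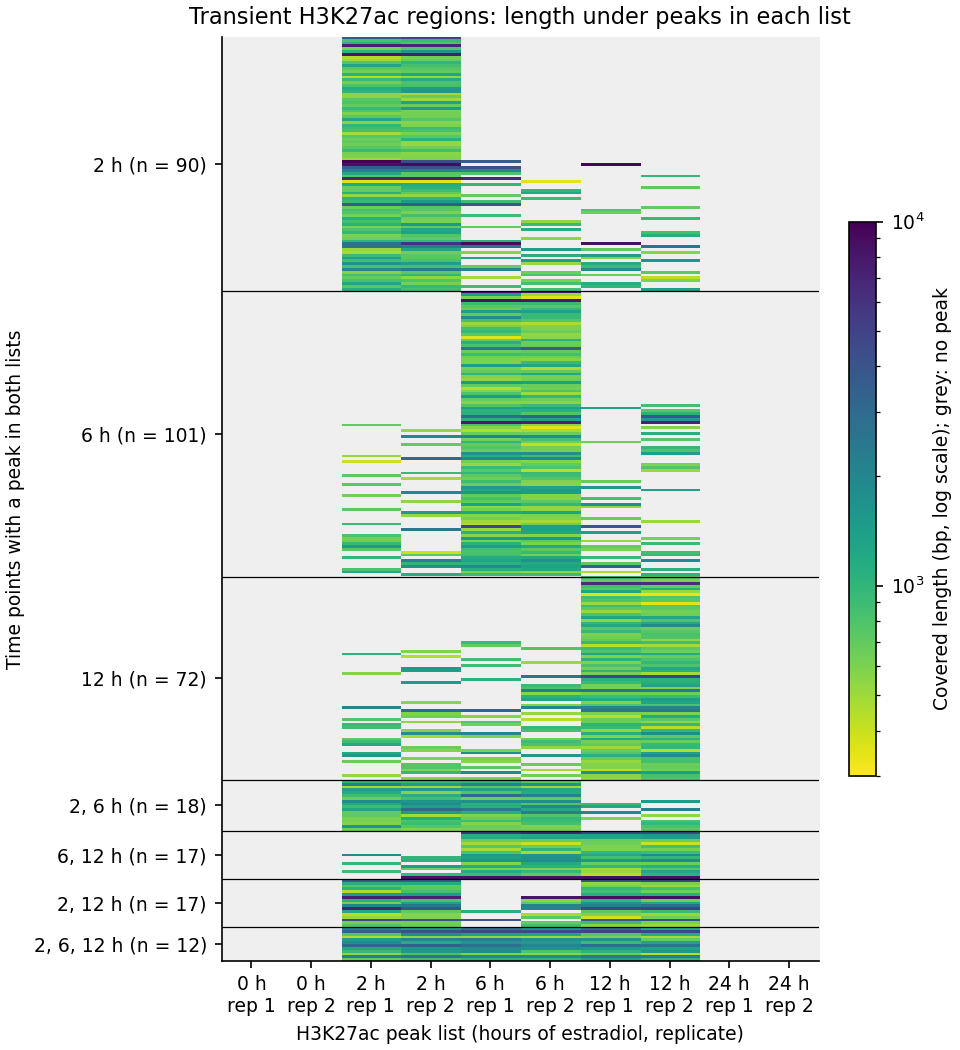
Each row is 1 of the 327 transient H3K27ac regions and each column is 1 H3K27ac list (hours of estradiol and replicate). Color gives the length of the region under peaks in bp on a log scale, and grey means no peak. The 0 h and 24 h columns are empty by the selection, and the 90, 101, and 72 regions with both lists at a single time form the largest blocks.

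The transient regions were short and weakly scored in comparison with the other H3K27ac regions. Each deposited peak carries a score that increases with its significance, and scores are given as percentiles within a list because they are not comparable between lists, except where a filter at the pooled median score is named as an alternative. The median width of the transient regions was 1130 bp and their median score percentile was 9.63 (quartiles 6.31 and 12.8). Regions with a peak in all 10 lists (constant, 13217 regions) had a median width of 3162 bp and a median percentile of 62.8. Regions that were gained by 24 h and kept (no peak at 0 h, both lists at 24 h, 833 regions) had medians of 1880 bp and 14.0, and regions that were lost (both lists at 0 h, none at 24 h, 1015 regions) had 1703 bp and 15.1. Within the 6 intermediate lists, the peaks at transient regions covered a median of 843 to 890 bp, and their median percentile lay between 7.48 and 10.3. The median width was 929 bp with 2 lists and 1154, 1273, 1555, and 1973 bp with 3, 4, 5, and 6 lists, and the median percentile was 7.93, 9.12, 10.0, 12.5, and 12.0, respectively. A region spans the merged peaks of all its lists, so its width tends to grow with their number by construction. The scores belong to the same peaks that the selection used.

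**Figure D2:**
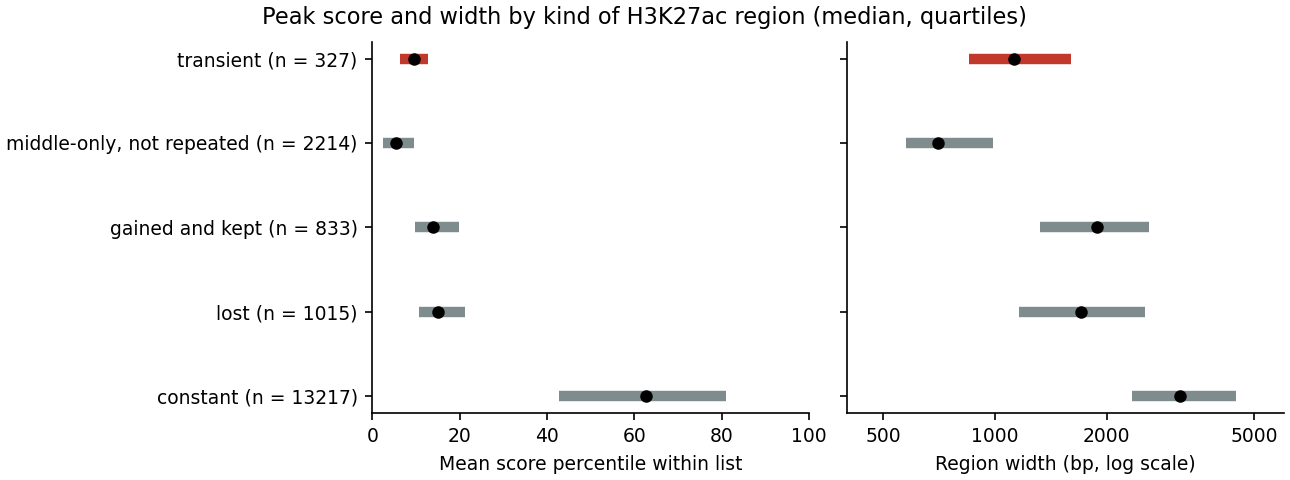
Median (point) and quartiles (bar) of the mean score percentile (left) and of the region width in bp on a log scale (right) for 5 kinds of H3K27ac region. The transient regions, with medians of 9.63 and 1130 bp, sit between the unrepeated regions of 2 to 12 h and the gained or lost regions, and far below the constant regions.

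The selection had a threshold on each side. Just inside it, the 107 regions with peaks in exactly 2 lists had a median percentile of 7.93. Just outside it, 413 regions had peaks at 2 to 12 h in 2 lists of different time points (7.22), 65 had 3 such lists (8.20), and 1736 had a peak in a single list (4.83). On the other side, 668 regions had both lists of an intermediate time and a peak in exactly 1 list at 0 or 24 h, with a median percentile of 11.6. The opposite pattern, a peak in all 4 lists at 0 and 24 h and in neither list of at least 1 intermediate time, was found at 117 regions with a median percentile of 15.0. Among all 2541 regions with peaks only at 2 to 12 h, 137 had both lists at 2 h, and 78 of these (56.9%, 95% Wilson interval 48.6 to 64.9) had a peak in at least 1 list at 6 h and 30 (21.9%) in both. The 1406 regions with neither list at 2 h had a peak in at least 1 list at 6 h in 60.8% and in both in 5.33%, but these regions enter the set only because they hold a peak at 6 or 12 h. Membership also depended on the score. When peaks below the pooled median score were left out, 102 regions met the same criteria, and these overlapped only 2 of the 327. When the same number of top-scoring peaks was taken from each list, 258 regions met the criteria, which overlapped 191 of the 327.

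Most transient regions lay away from promoters. A protein-coding TSS lay within 2 kb of 39 regions (11.9%, 95% Wilson interval 8.85 to 15.9), of which 28 contained it. This compared with 60.7% of constant, 11.4% of gained, and 15.9% of lost regions, and the intervals of the last 2 (9.42 to 13.7 and 13.7 to 18.2) overlapped that of the transient regions. Among the 2214 unrepeated regions, with peaks only at 2 to 12 h and never in both lists of a time, it was 9.49% (8.33 to 10.8). The median distance to the nearest TSS was 18.7 kb for transient, 13.6 kb for gained, and 19.2 kb for lost regions. The center of the region was in an intron in 181 cases (55.4%), between genes in 127 (38.8%), and in a coding exon in 10 (3.06%). The regions were spread over chromosomes 1 to 19 and X, and 0.938% (chromosome 13) to 1.84% (chromosome 12) of the H3K27ac regions of a chromosome were transient. There were 3 pairs of neighboring transient regions within 20 kb of each other, with 1.35% of all H3K27ac regions being transient. Those pairs were 700 bp apart near *Eef1a1*, 9185 bp apart near *Tmcc2*, and 10126 bp apart near *Daam1*. The nearest H3K27ac region of any kind was a constant region for 161 members. It was an unrepeated region for 34, a transient region for 4, and a region of another kind for 128. Constant regions made up 13217 of all 24299 H3K27ac regions, and whether the 161 members depart from that share was not tested. A peak at 0 or 24 h lay within 1 kb of 24 transient regions (7.34%), within 5 kb of 76 (23.2%), and within 20 kb of 223 (68.2%). For the 24 closest, a shift of a peak edge and a separate transient peak cannot be told apart.

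**Figure D3:**
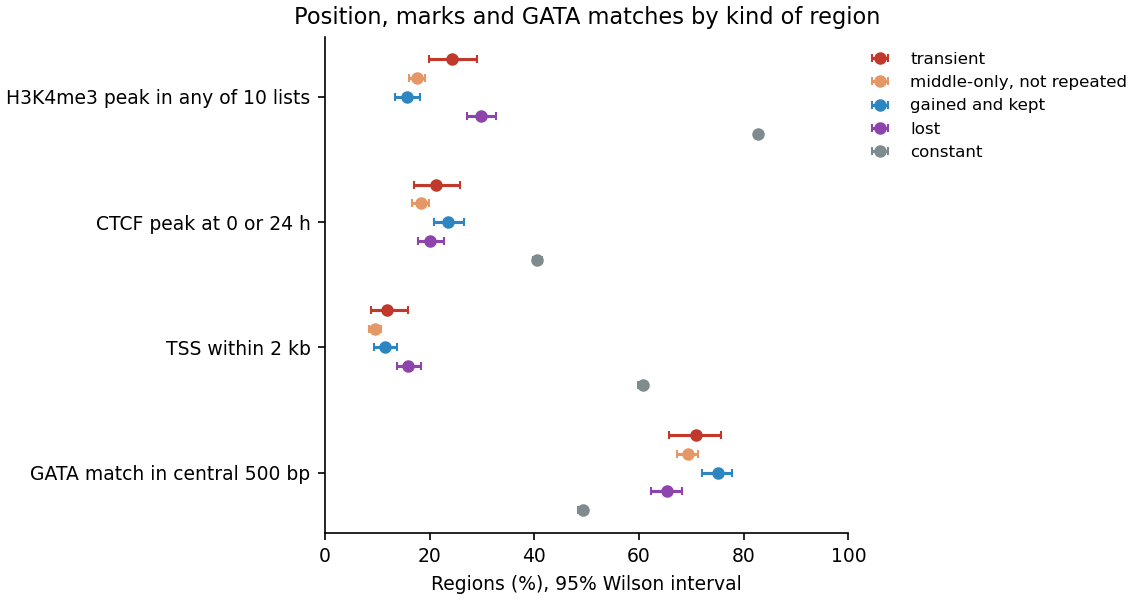
Percent of regions (points, with 95% Wilson intervals) that overlapped an H3K4me3 peak in any list, overlapped a CTCF peak, lay within 2 kb of a TSS, or held a GATA match in the central 500 bp, for 5 kinds of H3K27ac region. The transient regions lie near the unrepeated, gained, and lost regions and apart from the constant regions in all 4 features. For distal regions alone (not drawn) the GATA shares were closer, at 72.6% of transient and 68.6% of constant regions.

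The H3K4me3 lists played no part in the selection. They were used to ask whether a second mark at the transient regions differed between 2 to 12 h and 0 and 24 h. The tests averaged 2, 6, and 12 h for every region. Most regions had both H3K27ac lists at a single time, 90 at 2 h, 101 at 6 h, and 72 at 12 h. A change in H3K4me3 at a region's own time was therefore averaged with the other times and was not tested by itself. H3K4me3 was present at few of the transient regions, at every time point. The number of the 327 regions overlapped by an H3K4me3 peak was 54 and 59 in the 0 h lists, 61 and 50 in the 2 h lists, 58 and 50 in the 6 h lists, 52 and 48 in the 12 h lists, and 52 and 47 in the 24 h lists. Both counts at 0 h were above all 4 counts at 12 and 24 h, while those at 2 and 6 h (50 to 61) overlapped with both. All other H3K27ac regions had the same order, with 52.7% and 53.9% at 0 h against 49.3% to 50.2% at 12 and 24 h. So had the length of the H3K4me3 lists, with 14014 and 14452 peaks against 12925 to 13239. The counts at transient regions amounted to 14.4% to 18.7% of them, against 49.3% to 53.9% of all other H3K27ac regions. The mean over the 6 lists at 2 to 12 h was 16.3% ± 1.58 (SD, n = 6) and over the 4 lists at 0 and 24 h 16.2% ± 1.52 (n = 4), a difference of 0.0510 percentage points (two-sided exact permutation test over lists, p = 1, smallest possible p = 0.00476). When the percent among all other regions was subtracted in each list, the difference was 0.582 percentage points (exact permutation p = 0.371, and 0.743 after Benjamini-Hochberg adjustment over the 2 tests). Neither difference exceeded the spread between lists. The second one was 1.20 percentage points without H3K4me3 replicate 1 at 24 h (exact permutation p = 0.0476).

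**Figure D4:**
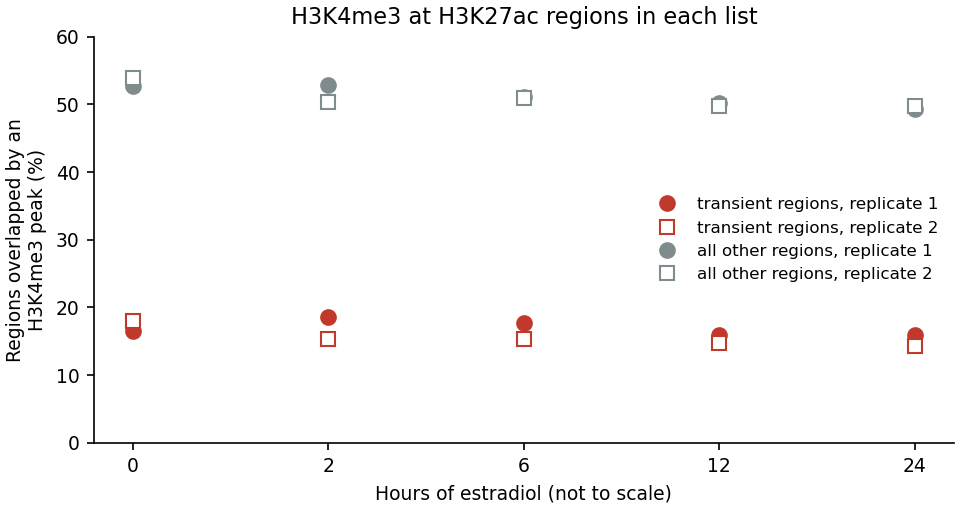
Percent of the 327 transient regions (red) and of all other H3K27ac regions (grey) overlapped by an H3K4me3 peak in each of the 10 H3K4me3 lists, by hours of estradiol and replicate. The transient regions stay between 14.4% and 18.7% and the other regions between 49.3% and 53.9%.

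The length under H3K4me3 peaks was also tested across the 14862 H3K4me3 regions seen in 2 or more lists, for the mean of 2, 6, and 12 h against the mean of 0 and 24 h (limma on log2(bp + 200)). In all, 30 regions (0.202%) were longer at 2 to 12 h and 14 (0.0942%) were shorter. Of the 72 tested H3K4me3 regions that overlapped a transient H3K27ac region, 0 were called by limma in either direction, and 6 (8.33%) had an unadjusted p below 0.05, against 1176 (7.91%) of all tested regions. Their median log2 difference was -0.06, against -0.04 for all tested regions. The smallest adjusted p among them belonged to the region near *Amdhd2*, whose replicates covered 2663 and 2454 bp (0 h), 2291 and 1900 bp (2 h), 1878 and 1900 bp (6 h), 1946 and 2244 bp (12 h), and 2449 and 2479 bp (24 h). Its log2 difference was -0.29 (SE 0.06), with a limma adjusted p of 0.21. Each of its values at 0 and 24 h was above each value at 2 to 12 h. The H3K27ac region there was covered over 8439 and 9082 bp (2 h), 0 and 0 bp (6 h), and 9453 and 0 bp (12 h). A second H3K4me3 region under it, near *Atp6v0c*, had a log2 difference of -0.03 (SE 0.05). Without H3K4me3 replicate 1 at 24 h, 2 of the regions at transient H3K27ac were called longer, with 62 longer and 8 shorter of all 14802 tested, and without replicate 2 at 24 h it was 1, with 34 longer and 4 shorter of 14769. Lengths of 0 in some lists do not follow a normal distribution, and limma's adjusted p may be too small there.

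By H3K4me3, the transient regions fell into a large group of 248 (75.8%) without any H3K4me3 peak, 44 with H3K4me3 in 1 to 9 lists, and 35 (10.7%) with H3K4me3 in all 10 lists. Those without H3K4me3 had a median percentile of 8.74 and those with H3K4me3 in all lists 14.7. Of the 35, 17 lay within 2 kb of a TSS. Among the other 18, which had H3K4me3 at every time but no protein-coding TSS within 2 kb, 8 (44.4%, 95% Wilson interval 24.6 to 66.3) overlapped an annotated pseudogene, compared with 259 of 2419 (10.7%) of all other H3K27ac regions of the same kind. This annotation was looked up after the H3K4me3 values had been seen. The 8 included copies of ribosomal protein genes, namely *Rps3a3*, *Rpl31-ps8*, *Rps2-ps10*, and *Rps13-ps1*, as well as *Mx2*, which is annotated as a polymorphic pseudogene. Without H3K4me3 and without a TSS within 2 kb, 3 of 229 transient regions (1.31%) overlapped a pseudogene, and 1.35% of all other such regions did. Pseudogenes share sequence with other loci and only uniquely aligned reads were kept, and the part of this in their peaks was not tested.

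A CTCF peak overlapped 59 transient regions at 0 h (95% Wilson interval 14.3% to 22.6%) and 69 at 24 h (21.1%, interval 17.0 to 25.8). All 59 regions with CTCF at 0 h also had it at 24 h, 10 (3.06%) had CTCF at 24 h only, and 0 had it at 0 h only. Over all H3K27ac regions, 6.99% had CTCF at 24 h only and 1.33% at 0 h only. Among constant regions CTCF was more frequent, with 31.4% at 0 h, 39.0% at 24 h, and 9.15% at 24 h only. At 24 h it overlapped 22.1% of gained, 18.6% of lost, and 17.3% of unrepeated regions. There was 1 CTCF list per time, with 33193 peaks at 0 h and 41473 at 24 h, so that these shares have no replicate and move with the length of the list. In all, 190 transient regions (58.1%) had no TSS within 2 kb and neither H3K4me3 nor CTCF in any list.

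The DNA sequence of the regions was then searched for motifs on both strands of the central 500 bp. GATA factors bind the word described above, and at least 1 match was found in 232 transient regions (70.9%, 95% Wilson interval 65.8 to 75.6), in 75.0% of gained, 65.3% of lost, and 49.2% of constant regions. Of the unrepeated regions of 2 to 12 h, 69.3% held one. With regions within 2 kb of a TSS left out the shares were 72.6% (67.1 to 77.4) of transient, 76.7% of gained, 68.7% of lost, 68.6% of constant, and 70.4% of all regions. The share at transient regions was thus close to that of distal H3K27ac regions in general. The mean number of matches was 1.65 at distal transient regions and 1.41 at all distal regions. By time, a match was found in 74.5% (66.6 to 81.0) of the regions with both lists at 2 h, 72.3% (64.6 to 78.9) at 6 h, and 66.1% (57.2 to 74.0) at 12 h, with overlapping intervals.

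Other motifs were searched in the same way, and each share is given for distal regions, transient first and then all. CACCC words (CCACACCC or CCGCACCC) and the GC-box word CCGCCC, which are bound by KLF and SP factors, were counted together and not apart. At least 1 was found in 9.38% (6.52 to 13.3) and 17.0%, and in 15.7% of gained and 14.5% of lost distal regions. This was the only motif for which the interval of the transient regions did not include the value of all distal regions. AP-1 words (TGAGTCA or TGACTCA) were found in 10.8% and 12.4%, although 17.1% of lost regions held one. The RUNX word TGTGGT was found in 38.5% and 35.1%, and the ETS word, GGAA preceded by GA, CA, or CC, in 73.3% and 71.1%. The STAT word, TTC and GAA 3 bases apart, was found in 15.6% and 15.7%, and the MYB word CAACNG in 53.5% and 52.5%. GATAA with CTG 7 or 8 bases before it, the composite word of GATA1 and TAL1, was found in 5.90% and 6.50%, and it overlaps the GATA words. The estrogen receptor word, GGTCA and TGACC 3 bases apart, was found in 0 of 327 transient regions and in 13 of all 24297 regions searched. The median GC content of distal transient and all distal regions was 45.8% and 46.0%. Over all transient regions, including those near a TSS, RUNX was found in 35.0% (27.6 to 43.3) with both lists at 2 h, 39.9% (32.3 to 47.9) at 6 h, and 48.3% (39.5 to 57.2) at 12 h, with overlapping intervals. It was found in 30.2% of all regions and 35.1% of all distal regions, and most transient regions are distal. In the central 200 bp the shares of transient regions at 2, 6, and 12 h were 17.5%, 18.9%, and 20.3%. These are shares of regions chosen on H3K27ac, and a match is not evidence that the factor is bound.

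The 12 regions with a peak in all 6 intermediate lists lay near *Ssbp3*, *Kmt5c*, *Ccr3*, *Cpne8*, *Tab2*, *Nab1*, *Ythdf2*, *Anapc15-ps*, *Cd81*, *Arhgap12*, *Borcs5*, and *Shoc2*, in order of their mean score percentile (18.2 to 5.53). The region chr4:106987209-106990272, in an intron of *Ssbp3*, a partner of the LIM-domain cofactor LDB1, was covered by peaks over 2098 and 1518 bp (2 h), 2656 and 1607 bp (6 h), and 2943 and 1240 bp (12 h), and it overlapped CTCF at 0 and 24 h. The region chr4:132192895-132196721, in an intron of *Ythdf2*, which encodes a reader of m6A in RNA, was covered over 3143 and 3488 bp, 2715 and 1941 bp, and 2757 and 2643 bp at these times. Neither had H3K4me3 in any list. Near *Ssbp3* the replicate values of the 3 times overlapped, and at *Ythdf2* both values at 2 h were above the 4 later ones.

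The widest of the 12 was chr7:4745304-4750231 at the 3′ part of *Kmt5c*, a histone H4K20 methyltransferase gene, where the TSS of a short coding transcript is annotated. It was covered over 3337 and 4174 bp (2 h), 4706 and 4751 bp (6 h), and 4886 and 4668 bp (12 h), with no H3K4me3, and a peak of the 0 or 24 h lists ended only 79 bp away. The region near *Nab1*, a corepressor of EGR factors, likewise had such a peak at 40 bp, and the one near *Borcs5*, whose center was in a UTR exon of *Dusp16*, at 128 bp. The other 9 were at least 3545 bp from any peak at 0 or 24 h. Among these were regions 4.14 kb upstream of *Ccr3*, a chemokine receptor gene, 63.0 kb upstream of *Tab2*, an adaptor of the kinase TAK1, and 17.9 kb downstream of the TSS of *Shoc2*, a scaffold of RAS and RAF signaling. Only the regions near *Cpne8* and *Arhgap12* had H3K4me3, in all 10 lists each.

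Among regions seen in both lists of 1 time and in no other list, the highest score percentiles at 2 h belonged to regions near *Tmcc2*, *Neil3*, and *Cdh10*. The region chr1:132379465-132384566, in an intron of *Tmcc2*, a gene of the erythroid list, was covered over 3606 and 5102 bp at 2 h, at percentiles of 65.1 and 37.0, and lay 1453 bp from a peak at 0 or 24 h. At 6 h they included a region near *Pitpnc1* (8710 and 7719 bp, at percentiles of 1.06 and 37.1), a promoter region with H3K4me3 in all lists. They also included a region near *Crtc1*, which encodes a CREB coactivator (1489 and 505 bp, at 24.9 and 12.5). At 12 h they lay near *Susd1* (902 and 706 bp), *Ankrd36* (695 and 596 bp), and *Cbfa2t3* (6214 and 6268 bp). The last of these, chr8:122683866-122690171, was 5.17 kb upstream of a TSS of *Cbfa2t3*, the gene of the corepressor ETO2, a component of TAL1 and GATA1 complexes. Its 2 replicates at 12 h were nearly equal in length, and all 8 other lists were empty, as this group requires. A peak at 0 or 24 h lay 2547 bp away. With a peak of 6268 bp, the region was also 1 of the 14 long regions described below.

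Regions near genes of the erythroid program, of the progenitor state and of signaling were few. The nearest TSS within 100 kb was that of a gene in the erythroid list (51 genes) for 4 transient regions (1.22%, against 0.453% of all H3K27ac regions). It was a progenitor or mast cell gene (39 genes) for 3 (0.917%, against 0.514%) and an EPO or KIT signaling gene (36 genes) for 3 (0.917%, against 0.543%). It was an immediate early gene (37 genes) for 2 (0.612%, against 0.436%) and a cell cycle gene (31 genes) for 1 (0.306%, against 0.263%). A megakaryocyte or platelet gene (24 genes) was the nearest for 0, against only 0.0864% of all regions. A promoter targeted for chromatin capture in the same study (41 of 42 matched) was the nearest for 3 regions (0.917%, against 0.531%). In all, 6 (1.83%) lay within 200 kb of one, against 1.86% of all regions. No test was run on these small counts.

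In the erythroid list, chr8:122272657-122275884 lay 6.26 kb upstream of *Zfpm1*, which encodes the GATA1 cofactor FOG1. It was covered over 896 and 1112 bp (2 h) and 3139 and 2144 bp (6 h), with no peak in either 12 h list, and it overlapped CTCF at 0 and 24 h. Its covered length at 6 h was above that at 2 h in both replicates. The region chr4:115037175-115038796 lay 17.6 kb upstream of *Tal1*, a hematopoietic transcription factor that acts with GATA1, within an intron of *Stil*. It was covered over 638 and 1307 bp (2 h), 0 and 703 bp (6 h), and 1622 and 1241 bp (12 h), with CTCF at both times and 4 GATA matches in its central 500 bp. Both regions at *Tmcc2* had peaks in both lists of 2 h but not in both lists of any other time. The one that contained a *Tmcc2* TSS was covered over 3403 and 4154 bp at 2 h and over 4243 and 0 bp at 6 h, and had H3K4me3 in all 10 lists.

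Of the signaling and progenitor genes, the region 28.3 kb upstream of *Lyn*, a SRC-family kinase gene, was seen at 12 h only. It was covered over 742 and 1130 bp, at percentiles of 0.391 and 24.6. The region 69.4 kb downstream of the *Meis1* TSS, a homeobox gene of progenitors, was seen at 2 h only (813 and 838 bp, at 7.01 and 11.2). The region 22.6 kb downstream of the TSS of *Cebpb*, a transcription factor of myeloid cells, was covered over 0 and 394 bp (2 h), 819 and 942 bp (6 h), and 0 and 870 bp (12 h). At 4.23 kb downstream of the TSS of *Ier2*, an immediate early gene, a region of 3768 bp was covered over 3554 and 3531 bp (2 h) and 3690 and 0 bp (6 h) and in neither list at 12 h, and a peak at 0 or 24 h lay 210 bp away. *E2f8*, which encodes a repressor of the E2F family, had a region of 556 bp at 12.9 kb upstream, seen at 2 h only (556 and 490 bp), whose CTCF peaks were among the highest in score of all members (percentiles 97.9 and 92.0). Of the captured promoters, the region 18.5 kb upstream of *Rgs1*, a regulator of G protein signaling, was covered over 2232 and 1454 bp (2 h) and 2174 and 1662 bp (6 h), with no peak at 12 h. The region 7.82 kb upstream of *Cyp11a1*, which encodes the enzyme that starts steroid synthesis, was covered over 0 and 579 bp (2 h), 0 and 0 bp (6 h), and 786 and 651 bp (12 h), and had H3K4me3 in all 10 lists.

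A small number of transient regions differed from the rest in being long. In 14 regions (4.28%) at least 1 peak was 6 kb or longer, and their median width was 8522.5 bp, against 1111 bp for the other 313. Of the 14, 10 contained a TSS, against 18 of the 313, and 10 had H3K4me3 in all lists. They included promoters of genes that most cells use, such as *Eef2* and *Eef1d*, which encode translation elongation factors. *Eef2* was covered over 7220 and 6871 bp at 2 h and over 0 bp in every other list, and a peak of the 0 or 24 h lists ended 78 bp away. *Eef1d* was covered over 2710 and 5963 bp (2 h), 9003 and 0 bp (6 h), and 8490 and 0 bp (12 h), and had the highest mean percentile of all 327 regions (73.7). The region chr19:6973630-6982215, which held the TSS of *Ppp1r14b* and had its center in an exon of *Fkbp2*, was covered over 0 and 8406 bp (2 h), 8432 and 8437 bp (6 h), and 8575 and 8519 bp (12 h). Its percentiles were only 3.10 to 8.30, and its CTCF peaks were at 98.5 and 97.9. The region of *Dtymk*, the thymidylate kinase gene, was covered over 7464 and 7192 bp, 0 and 8325 bp, and 8669 and 8627 bp at 2, 6, and 12 h. At *Eef1d*, *Ppp1r14b*, and *Dtymk*, H3K4me3 was present in all lists while the H3K27ac peak was absent from 1 replicate of a time at which the other had it.

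**Figure D5:**
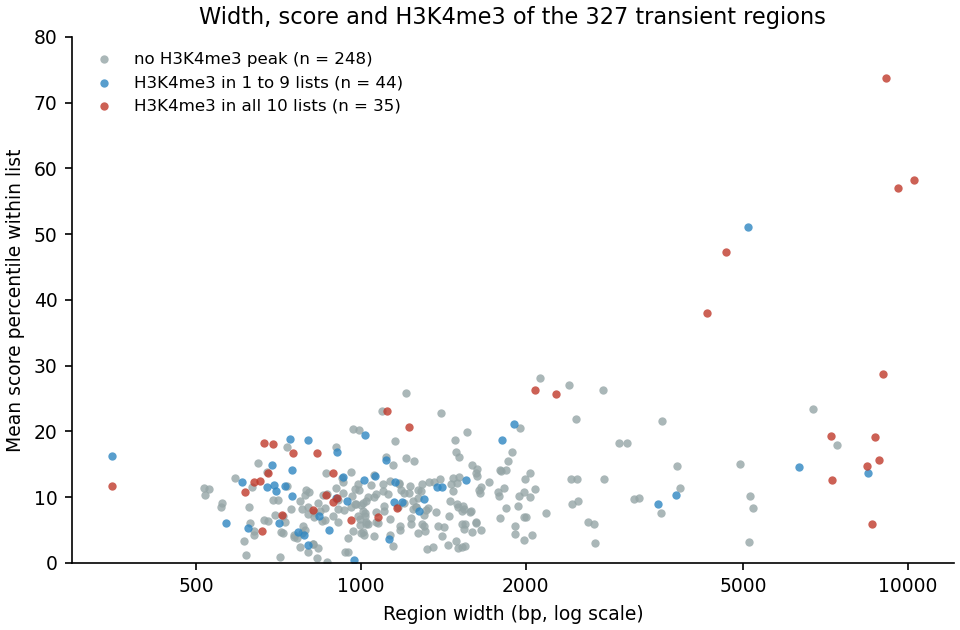
Width in bp (log scale) against mean score percentile for the 327 transient regions, colored by the number of H3K4me3 lists with a peak. Most points lie at the lower left, near the medians of 1130 bp and 9.63, and the wide or high points are mostly regions with H3K4me3 in all 10 lists.

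The H3K27ac lists were similar in size, with 17247 to 18333 peaks each, and in none was a peak longer than 8973 bp, while the lists at 2 to 12 h held 703 to 836 peaks of 6 kb or longer and those at 0 and 24 h 686 to 873. Of 12 marker genes of the erythroid line, 10 had an H3K4me3 peak within 2 kb of a TSS in at least 1 list, and *Tal1* and *Gata1* had none. For H3K27ac, 6 of the 12 had no peak there in any list, among them *Hbb-bt*, *Tal1*, *Gata1*, *Kit*, and *Nfe2*. None of 14 markers of other lineages had a peak of either mark. Whether the mark itself was absent where a list held no peak cannot be told from the lists, and whether a limit on peak length was applied is not given in the sources used here. The part of such a limit in the 14 long transient regions was not tested. The 157 constant regions nearest to a transient region, within 20 kb, had a median log2 difference in covered length, 2 to 12 h minus 0 and 24 h, of 0.03. It was 0.02 for 13060 other constant regions. In these sets, 61.8% and 55.8% were longer at 2 to 12 h. Constant regions hold a peak in all 10 lists by definition, which limits how far they can change, and neighbors of other kinds were not measured.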

How the data were processed

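H3K27ac, H3K4me3, and CTCF were measured by ChIP-seq in 22 libraries of G1ER cells, grouped by antibody and hours of β-estradiol from the sample titles. The authors aligned reads with Bowtie2 at default parameters to mm10, kept unique reads, and called peaks per library with MACS without its model step, and the MACS version, control, and threshold are not given in the sources used here, nor is the caller of the CTCF peaks. The 5th column of the deposited lists is the authors' peak score, judged to be a multiple of -log10 of the p-value (lowest 50.0). The labels also name a human build, but all peaks fell within the chromosomes of GRCm38, and the files were used with GENCODE M21 and RefSeq sequence of that build. The lists hold no read counts, so depth is unknown and Wilson intervals cover counting error over regions only. The labels do not say that replicates came from separate cultures, although the study describes its ChIP-seq in these cells as a pair of independent experiments. A peak of 1 bp overlap counted as present.

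Peaks were merged where they touched. H3K4me3 was compared over lists by two-sided exact permutation tests (210 arrangements), and over regions with limma on log2(bp + 200). The limma step was also run on simulated data with normal noise, which did not model lengths of 0 in only some lists. Named regions were those with 6 lists, the 3 highest-scoring of each single time, the 3 with most H3K4me3, the 3 with the highest CTCF score, and the 12 highest-scoring near a listed gene, and 1 region named by this rule is not reported here. The regions, gene lists, tests, and naming rule were chosen with earlier results of these data known. Alternatives covered the score filter, merging distance, overlap, windows, pseudocount, a replicate block, and leaving out each list. Python 3.11.15, pandas 2.3.3, scipy 1.17.1, pysam 0.24.0, R 4.3.3, and limma 3.58.1 were used.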

Additional observations from a re-analysis of the deposited data

How the results depend on the processing

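The number of transient regions was 327, and between 258 and 458 with equal numbers of top peaks, merging within 500 or 1000 bp, autosomes and X only, peaks covering 50% of the region, no 0 or 24 h peak within 1 kb, or no peak of 6 kb or longer (the last 2 chosen after seeing the data). It was 102 when only peaks that reached the pooled median score were used, and 453 to 846 when 1 H3K27ac list was left out, which loosens the selection by construction (453 without 24 h replicate 2, 846 without 6 h replicate 1). The difference in H3K4me3 between 2 to 12 h and 0 and 24 h was never past the threshold. It changed sign to -0.408 percentage points with H3K4me3 within 1 kb, to -0.735 with regions from peaks at or above the median score, and to -0.157 with merging within 500 bp, and ranged from -0.561 to 0.663 when 1 list was left out. Less the value of all other regions it was -0.205 with H3K4me3 peaks at or above the median score, -0.468 with regions from such H3K27ac peaks, and 0.253 to 1.20 without 1 list, past the threshold only without replicate 1 at 24 h. By limma, 0 to 2 regions were called when 1 list was left out and 0 otherwise. CTCF shares were 11.3% (0 h) and 16.2% (24 h) with peaks at or above the median score, the GATA share was 41.0% in 200 bp and 89.3% in 1000 bp, and 16.8% had a TSS within 5 kb. The cause was not tested for these changes, except that wider windows and fewer peaks move shares by construction.

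With the replicate block, the differences in H3K4me3 were 0.0510 and 0.582 percentage points (exact permutation p = 1 and 0.35), and limma called 0 of the 72 regions and 14 of all in place of 44. The replicate numbers did not pair the lists, since 0 of 10 correlations of deviations between same-numbered lists were over 0.1 for either mark (-0.029 to 0.017 for H3K27ac, -0.076 to 0.032 for H3K4me3).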
